A study of Mus musculus with 24 samples.

Results

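The acute phase transcripts described here are 10 mouse liver genes: the serum amyloid A genes Saa1, Saa2 and Saa3, the orosomucoid genes Orm1, Orm2 and Orm3, and Lcn2, Lbp, Apcs and Hp. They were chosen by gene symbol, as every probe that is not a control spot and that the scanner files name for one of them. This gave 12 probes for the 10 genes, out of 32078 probes for 16988 genes that were bright enough to test, and all 12 were tested. RNA of C57BL/6J livers was hybridised to 24 one-colour arrays (Agilent, Cy3 dye), 1 per sample. The labels name 4 groups of 6: males fed a diet with added pesticides, males fed the control diet, females fed the pesticide diet and females fed the control diet. All mice are labelled as 68 weeks old and fed for 52 weeks, and all share the wild-type C57BL/6J background. The labels also give purchase at 8 weeks of age and 2 weeks of acclimatisation. With the weeks of feeding these do not add up to the stated age. The labels used here do not name the pesticides. No mouse number is given, so p-values measure the spread between samples.

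The sex-linked transcripts went against part of the labels. Xist, which cells with an inactive X chromosome express, averaged 8.24 ± 0.11 in labelled male pesticide livers against 5.08 ± 0.10 in their labelled controls, and 8.21 ± 0.16 in labelled female pesticide livers against 5.12 ± 0.24 in theirs (log2 signal, SD, n = 6 each). The Y-linked Eif2s3y averaged 5.08 ± 0.15 and 10.94 ± 0.05, and 5.13 ± 0.16 and 10.99 ± 0.17, in the same groups; each was well above background on 0 of the 6 arrays of every group where it was dim. The labelled diet thus coincided with the sex-linked transcripts on every array, and a difference between labelled diets cannot be told apart from one between the sexes; groups are called by their labels throughout. Each of 3 slides carried 2 arrays of each group, and arrays correlated with Pearson r of 0.972 to 0.996 over probes. Hepatocyte markers such as Alb were bright on all arrays, with a summed level of 20.89 to 20.96 in labelled male pesticide, 20.87 to 20.91 in labelled male control, 20.88 to 20.98 in labelled female pesticide livers and 20.85 to 20.92 in labelled female control livers. In whole liver RNA, fewer cells of a type and less RNA per cell cannot be told apart.

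The acute phase response is the change in liver secretion that follows infection or tissue injury. Interleukin 6 acts on hepatocytes mainly through STAT3, and interleukin 1 and tumour necrosis factor act mainly through NF-kB, together with C/EBP factors. In mice, serum amyloid A and serum amyloid P are the classical strong responders, whereas haptoglobin is abundant already in healthy plasma and responds less.

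Upstream sequences are shown for Saa1 with Saa2 and for Orm2 with Orm3. RefSeq promoters (GRCm38.p6, a window of 300 bases around the gene start) were at hand for 7 of the 10 genes: Saa1, Saa2, Saa3, Orm2, Orm3, Lcn2 and Apcs. Capitals mark the letters of a C/EBP-type motif (TTGCNNAA) or, in Saa1, also of an NF-kB-type motif, on either strand.
Saa1 promoter, chr7:46742931-46743230, minus strand: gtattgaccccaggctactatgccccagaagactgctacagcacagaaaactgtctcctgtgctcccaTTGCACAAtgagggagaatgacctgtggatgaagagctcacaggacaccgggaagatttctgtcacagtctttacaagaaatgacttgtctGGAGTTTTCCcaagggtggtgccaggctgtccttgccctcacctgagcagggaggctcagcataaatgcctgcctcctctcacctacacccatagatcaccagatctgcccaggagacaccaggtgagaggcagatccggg
Saa2 promoter, chr7:46751583-46751882, plus strand: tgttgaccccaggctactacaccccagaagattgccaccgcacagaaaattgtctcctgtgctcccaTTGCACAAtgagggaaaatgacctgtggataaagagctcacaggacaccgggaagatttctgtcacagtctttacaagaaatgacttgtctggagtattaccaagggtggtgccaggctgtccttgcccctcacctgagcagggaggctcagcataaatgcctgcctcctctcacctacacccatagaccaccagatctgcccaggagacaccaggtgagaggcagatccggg
Orm2 promoter, chr4:63362199-63362498, plus strand: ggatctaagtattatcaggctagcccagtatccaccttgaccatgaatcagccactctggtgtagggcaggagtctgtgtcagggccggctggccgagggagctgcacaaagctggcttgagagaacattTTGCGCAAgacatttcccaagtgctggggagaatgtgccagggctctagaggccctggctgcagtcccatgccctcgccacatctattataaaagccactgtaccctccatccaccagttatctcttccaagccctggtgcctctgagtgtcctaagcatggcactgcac
Orm3 promoter, chr4:63355908-63356207, plus strand: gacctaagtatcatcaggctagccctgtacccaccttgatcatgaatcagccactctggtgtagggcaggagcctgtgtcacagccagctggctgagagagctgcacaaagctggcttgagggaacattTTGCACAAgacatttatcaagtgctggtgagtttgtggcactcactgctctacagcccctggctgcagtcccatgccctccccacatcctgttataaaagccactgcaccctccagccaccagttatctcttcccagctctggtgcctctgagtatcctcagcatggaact

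The Saa1 and Saa2 windows were identical at 287 of 301 aligned columns (95.3%), and the Orm2 and Orm3 windows at 264 of 305 (86.6%). Saa1 and Saa3 shared 182 of 336 columns (54.2%). The C/EBP-type letters stood in 6 of the 7 windows, against 10.8% of 32851 mouse promoter windows of the same length. The NF-kB-type letters were found in Saa1 alone of the 7, against 15.3% of all windows, and a STAT-type motif (TTCNNNGAA) in Apcs alone, against 8.3%. The motifs were chosen with these sequences in view, no match of one motif overlapped a match of another, and a match describes letters, not a bound site.

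The probes decide which family members can be separated. All probe positions are on mm9, per the scanner files. The Orm1 probe A_55_P2734867 (chromosome 4, 63007395 to 63009038) carries RefSeq accessions of both Orm1 and Orm2, so its signal may come from both. It overlaps in sequence with the Orm3 probe A_51_P311958 (chromosome 4, 63018910 to 63020393) over 52 bases, of which 46 are identical. Whether this Orm3 probe also detects Orm1 or Orm2 was not tested, which bears on all its values below. The 6 mismatches are in capitals.
Orm1 probe A_55_P2734867: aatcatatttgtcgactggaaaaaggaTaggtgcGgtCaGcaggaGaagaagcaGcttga
Orm3 probe A_51_P311958: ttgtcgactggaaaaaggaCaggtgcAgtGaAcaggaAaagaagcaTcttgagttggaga

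The comparison of labelled diets set labelled pesticide against labelled control livers. Its differences cannot be told apart from differences between the sexes, as said above. All values are log2 signals after quantile normalization, and fold changes are labelled pesticide over labelled control. In labelled males 2 of the 12 probes passed limma's test at an adjusted p under 0.05, both higher: one probe of Orm3, and Lbp. In labelled females the same 2 probes passed, both higher. Over all probes tested, 22.2% passed in labelled males (11.6% higher, 10.7% lower) and 18.3% in labelled females (8.88% higher, 9.44% lower), and the members' counts are to be read against these shares. Averaged over the labelled sexes, 5 of 12 probes passed, all higher, against 36.1% of all probes (17.5% higher, 18.6% lower): the same Orm3 probe, both Lcn2 probes, Lbp and Apcs. The serum amyloid A genes, Orm1, Orm2 and Hp did not pass in any of these comparisons.

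Among the serum amyloid A genes, Saa1 encodes a small apolipoprotein that is carried on high-density lipoprotein and rises steeply in inflammation. Its probe lies on chromosome 7 at 53996070 to 53996129. Its lowest, median and highest signals were 12.56, 13.50 and 13.88 in labelled male pesticide livers, against 12.18, 12.79 and 18.05 in labelled male control livers. They were 12.90, 14.08 and 14.59 in labelled female pesticide livers, against 12.71, 13.40 and 14.76 in labelled female control livers. The groups overlapped, and the widest range was in labelled male control livers, where the highest array was 58.6-fold above the lowest. That array, labelled male control 4, stood at 39.1 times the median of the other 5 arrays of its group. The spot of labelled female control 3 was marked as a non-uniform outlier and left out (n = 5 there); with such spots kept it read 16.27, above the other 5.

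Saa1 differed between labelled diets by -0.55 ± 0.68 (SE, adjusted p = 0.61) in labelled males, with a 95% interval of -1.95 to 0.85. In labelled females it differed by 0.09 ± 0.71 (adjusted p = 0.95), with an interval of -1.38 to 1.56. Neither interval excludes a change in either direction. Without labelled male control 4 the value in labelled males was 0.28, of the other sign, and did not pass either.

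Saa2 encodes a close relative of Saa1 with the same carrier (chromosome 7, 54009535 to 54009594). Its lowest, median and highest signals were 12.99, 13.97 and 14.37 in labelled male pesticide livers, against 12.41, 13.16 and 18.20 in labelled male control livers. They were 13.33, 14.54 and 14.82 in labelled female pesticide livers, against 12.95, 14.49 and 16.91 in labelled female control livers. The 2 highest arrays were again labelled male control 4 and labelled female control 3, at 36.0 and 8.78 times the median of the other 5 in their groups. The differences between labelled diets were -0.41 ± 0.73 (adjusted p = 0.73) in labelled males and -0.35 ± 0.73 (adjusted p = 0.78) in labelled females, and did not pass.

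Saa3 is an inducible serum amyloid A that macrophages and adipocytes also make. Its medians were 10.38 in labelled male pesticide, 10.43 in labelled male control, 10.42 in labelled female pesticide livers and 10.24 in labelled female control livers. All arrays lay between 8.98 and 11.23, and labelled male control 4, at 10.76, was not the highest of its group. The differences of 0.08 ± 0.31 (adjusted p = 0.89) and 0.12 ± 0.31 (adjusted p = 0.83) in labelled males and females did not pass.

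**Figure D1:**
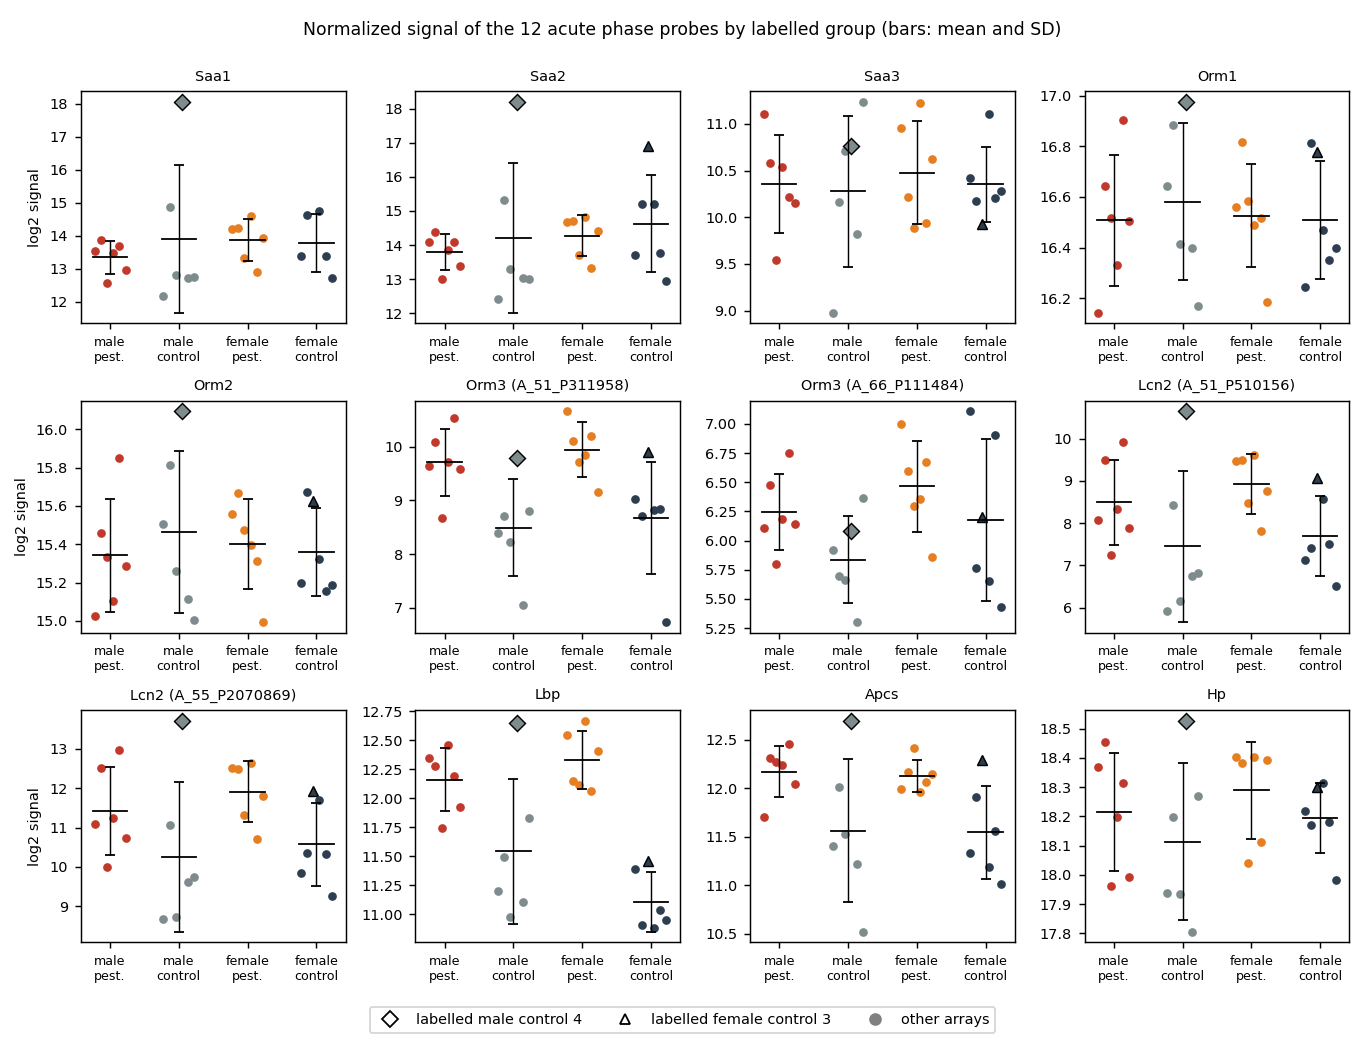
Normalized log2 signal of the 12 probes (vertical axis, scaled for each panel) by labelled group, 6 arrays each, with the mean and SD as black bars; the diamond is labelled male control 4 and the triangle labelled female control 3. For Saa1 and Saa2 the diamond stands at 18.05 and 18.20, apart from every other array of its group.

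The orosomucoids are plasma carriers of basic and neutral lipophilic compounds, and Orm1 and Orm2 are the main liver forms. The Orm1 probe ranged from 16.14 to 16.90 in labelled male pesticide, 16.17 to 16.97 in labelled male control, 16.19 to 16.82 in labelled female pesticide livers and 16.25 to 16.81 in labelled female control livers. Orm2 (chromosome 4, 63024979 to 63025038) ranged from 15.03 to 15.85 and 15.01 to 16.09 in labelled male pesticide and control livers, and from 14.99 to 15.67 and 15.16 to 15.67 in labelled female pesticide and control livers. These were narrow ranges that overlapped throughout. The differences were -0.07 ± 0.14 and 0.02 ± 0.14 for Orm1 (adjusted p = 0.76 and 0.95), and -0.12 ± 0.17 and 0.04 ± 0.17 for Orm2 (adjusted p = 0.65 and 0.90), in labelled males and females.

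Orm3 is the third mouse orosomucoid. With probe A_51_P311958 its lowest, median and highest signals were 8.67, 9.68 and 10.52 in labelled male pesticide livers, against 7.05, 8.55 and 9.80 in labelled male control livers. They were 9.16, 9.97 and 10.66 in labelled female pesticide livers, against 6.74, 8.83 and 9.90 in labelled female control livers. The groups overlapped, in labelled females through labelled female control 3 alone, and labelled male control 4 and labelled female control 3 were the highest of their control groups. Orm3 was higher in labelled pesticide livers by 1.21 ± 0.42 in labelled males (SE, 2.32-fold, adjusted p = 0.041) and by 1.27 ± 0.42 in labelled females (2.41-fold, adjusted p = 0.038), and by 1.24 ± 0.30 on average (adjusted p = 0.0022).

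The Orm3 calls within each labelled sex were close to the threshold. In labelled males the call was lost on leaving out any of labelled male pesticide 1, 2, 4, 5 or 6 or labelled male control 1, 2, 3 or 5, with values of 0.92 to 1.25 and adjusted p of 0.051 to 0.11. In labelled females it was lost without labelled female pesticide 1, 2, 3, 4 or 5 or labelled female control 2, 5 or 6, with values of 0.88 to 1.32 and adjusted p of 0.05 to 0.11. The average passed without any single array, at 1.05 to 1.37. The second Orm3 probe, A_66_P111484 (chromosome 4, 63018004 to 63018619), differed by 0.41 ± 0.25 (adjusted p = 0.26) and 0.29 ± 0.25 (adjusted p = 0.46) and did not pass. It was dim, being well above background on 6 labelled male pesticide arrays against 3 labelled male control arrays, and on 6 labelled female pesticide arrays against 4 labelled female control arrays.

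Lcn2 encodes lipocalin 2, which binds bacterial siderophores and so withholds iron. Its probe A_51_P510156 (chromosome 2, 32241037 to 32241281) had lowest, median and highest signals of 7.24, 8.21 and 9.91 in labelled male pesticide livers, against 5.93, 6.78 and 10.64 in labelled male control livers. They were 7.82, 9.11 and 9.60 in labelled female pesticide livers, against 6.53, 7.45 and 9.07 in labelled female control livers. The highest array of all was labelled male control 4, at 14.8 times the median of the other 5 of its group, and the groups overlapped. The second probe, A_55_P2070869 (chromosome 2, 32240199 to 32240258), had medians of 11.16 in labelled male pesticide livers, against 9.68 in labelled male control livers, and of 12.14 in labelled female pesticide livers, against 10.34 in labelled female control livers.

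Lcn2 did not pass within either labelled sex. The differences were 1.04 ± 0.63 and 1.17 ± 0.68 for its 2 probes in labelled males (adjusted p = 0.25 and 0.23) and 1.24 ± 0.63 and 1.34 ± 0.68 in labelled females (both adjusted p = 0.18). Averaged over the labelled sexes they were 1.14 ± 0.44 (adjusted p = 0.048) and 1.25 ± 0.48 (adjusted p = 0.044), which passed. Without labelled male control 4, both probes passed in labelled males, at 1.68 (adjusted p = 0.023) and 1.86 (adjusted p = 0.020).

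The averaged Lcn2 call rested on the arrays used. For A_51_P510156 it was lost without any one of labelled male pesticide 1, 2, 4 or 5, labelled male control 1, 3, 5 or 6, labelled female pesticide 1, 2, 3, 4 or 6, or labelled female control 1, 2, 5 or 6, at 0.98 to 1.18. For A_55_P2070869 it was lost without the same arrays except labelled male pesticide 1 and labelled female pesticide 3, at 1.1 to 1.27. On slide 2, which held both labelled male control 4 and labelled female control 3, the averaged differences were -0.19 and -0.22.

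**Figure D2:**
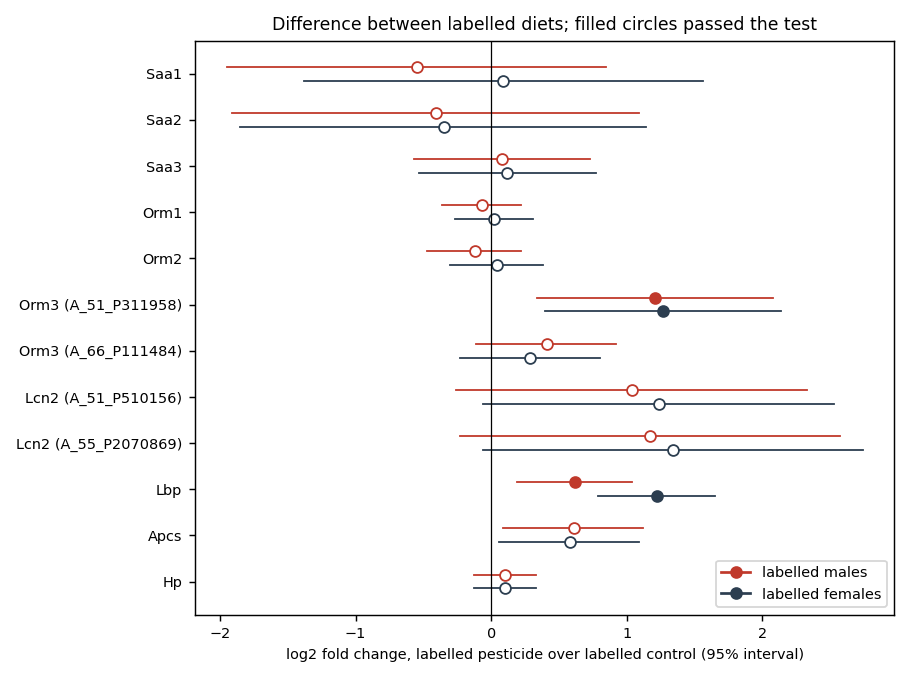
Log2 fold change of each probe, labelled pesticide over labelled control (horizontal axis), with its 95% interval, in labelled males (red, upper) and labelled females (dark blue, lower); filled circles passed limma's test. Orm3 probe A_51_P311958 and Lbp are filled in both, and the widest intervals are those of Saa1, Saa2 and Lcn2.

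Lbp encodes the lipopolysaccharide-binding protein, which passes bacterial lipopolysaccharide to Cd14. Its probe lies on chromosome 2 at 158154142 to 158157684. Its lowest, median and highest signals were 11.74, 12.23 and 12.46 in labelled male pesticide livers, against 10.97, 11.35 and 12.65 in labelled male control livers. They were 12.06, 12.28 and 12.67 in labelled female pesticide livers, against 10.88, 11.00 and 11.46 in labelled female control livers. The labelled female groups did not overlap, which held for 7.83% of all probes in labelled females; in labelled males, where no member's groups were apart, it held for 10.2%. Lbp was higher by 0.62 ± 0.21 (1.53-fold, adjusted p = 0.034) in labelled males, by 1.22 ± 0.21 (2.33-fold, adjusted p = 0.00021) in labelled females and by 0.92 ± 0.15 on average (adjusted p = 3.4e-05).

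The Lbp difference in labelled females was 1.20, 1.22 and 1.24 on slides 1, 2 and 3, and passed without any single array, at 1.15 to 1.29. In labelled males it was 0.96, 0.29 and 0.59 on those slides. There the call was lost without labelled male pesticide 1, 2, 4 or 5 or labelled male control 1, 2, 3 or 5, at 0.50 to 0.61 with adjusted p of 0.053 to 0.091. The difference between the 2 labelled sexes was itself -0.60 ± 0.29 and did not pass (adjusted p = 1).

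Apcs encodes serum amyloid P, a pentraxin that binds bacterial and amyloid surfaces (chromosome 1, 174824959 to 174825018). Its lowest, median and highest signals were 11.71, 12.25 and 12.45 in labelled male pesticide livers, against 10.52, 11.47 and 12.70 in labelled male control livers. They were 11.96, 12.10 and 12.41 in labelled female pesticide livers, against 11.01, 11.44 and 12.29 in labelled female control livers. Of the 12 labelled control arrays, 8 lay below the lowest labelled pesticide array. The differences of 0.61 ± 0.25 (adjusted p = 0.084) and 0.58 ± 0.25 (adjusted p = 0.11) in labelled males and females did not pass, and their average of 0.59 ± 0.18 did (adjusted p = 0.011). Without labelled male control 4 Apcs passed in labelled males (0.83, adjusted p = 0.0094), and without labelled female control 3 in labelled females (0.73, adjusted p = 0.046).

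Hp encodes haptoglobin, which binds free haemoglobin in plasma. It ranged from 17.96 to 18.45 in labelled male pesticide, 17.81 to 18.53 in labelled male control, 18.04 to 18.40 in labelled female pesticide livers and 17.98 to 18.31 in labelled female control livers. The groups overlapped, and the difference of 0.10 ± 0.11 in each labelled sex did not pass (adjusted p = 0.55 and 0.60).

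The interaction of the diet and sex labels passed for 0 of 12 probes and for 0% of all probes by limma, with 0 member probes and 1265 of 32078 probes at an unadjusted p under 0.05. Labelled males against labelled females also gave 0 member probes, within labelled pesticide and within labelled control livers, where 0% of all probes passed. At an unadjusted p under 0.05 these comparisons held 0 and 1 member probes, and 1311 and 1792 probes in all. The 1 was Lbp, higher by 0.44 ± 0.21 in labelled male than in labelled female control livers. Labelled males and females of the same labelled diet were alike in the sex-linked transcripts. Neither the comparisons of sex labels nor the interaction thus describes a difference between the sexes.

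The spread between arrays of one labelled group differed widely among the members. The pooled SD was 1.28 for Saa1, 1.37 for Saa2 and 1.18 and 1.28 for the Lcn2 probes, against a median of 0.18 over all tested probes. These SDs stood at the 99.9 percentile or above. Orm3 had 0.79 and 0.47, Saa3 0.59, Apcs 0.47, Lbp 0.38, Orm2 0.31, Orm1 0.25 and Hp 0.20. A step of 1 SD was thus a 2.59-fold change for Saa2 and a 1.15-fold change for Hp.

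The same arrays were high for many members. Labelled male control 4 was above its group mean in 10 of 10 genes and had the highest deviation of all 24 arrays in 9 of them. For Orm1, counted among the 9, it was level with labelled male pesticide 5, both at 0.39. The deviations of labelled male control 4 ranged from 0.39 to 4.15. Labelled female control 3 was above its group mean in 8 of 9 genes measured there, by up to 2.28 for Saa2. Labelled male pesticide 6, labelled male control 5 and labelled female control 6 were above their group means in 0 of 10 genes.

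**Figure D3:**
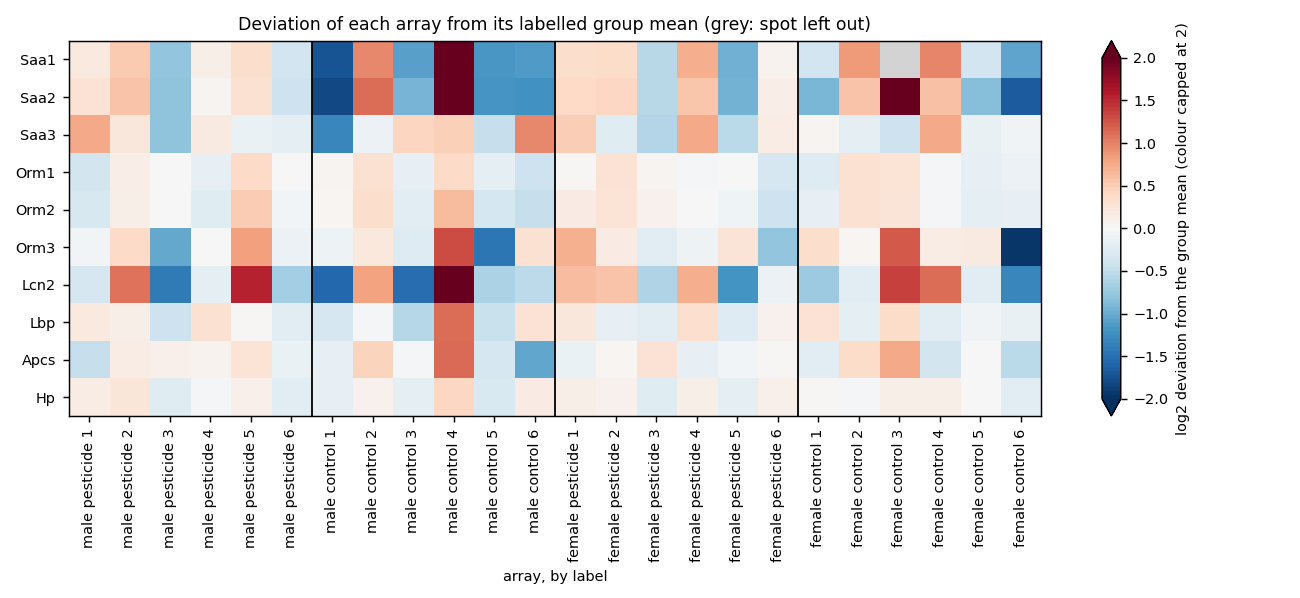
Deviation of each array from the mean of its labelled group, in log2 units by colour (capped at 2), for the 10 genes (rows) and 24 arrays (columns, with lines between the labelled groups). Labelled male control 4 is above its group mean in all 10 genes, and grey is the Saa1 spot left out on labelled female control 3.

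Leaving out labelled male control 4 and labelled female control 3 together, a choice made after seeing the data, left 5 of 12 probes passing in labelled males and 5 in labelled females, all higher, against 19.1% of all probes in labelled males (9.88% higher) and 16.9% in labelled females (8.22% higher) in that fit. These arrays were picked because they were high for these very genes in the control groups, so the direction of this move was set by the choice. Lcn2 then differed by 1.68 and 1.86 in labelled males (adjusted p = 0.018 and 0.016) and by 1.51 and 1.61 in labelled females (adjusted p = 0.033 and 0.037). Apcs differed by 0.83 (adjusted p = 0.0047) and 0.73 (adjusted p = 0.013). Saa1 and Saa2 were then at 0.28 and 0.39 in labelled males and 0.09 and 0.10 in labelled females, and did not pass.

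**Figure D4:**
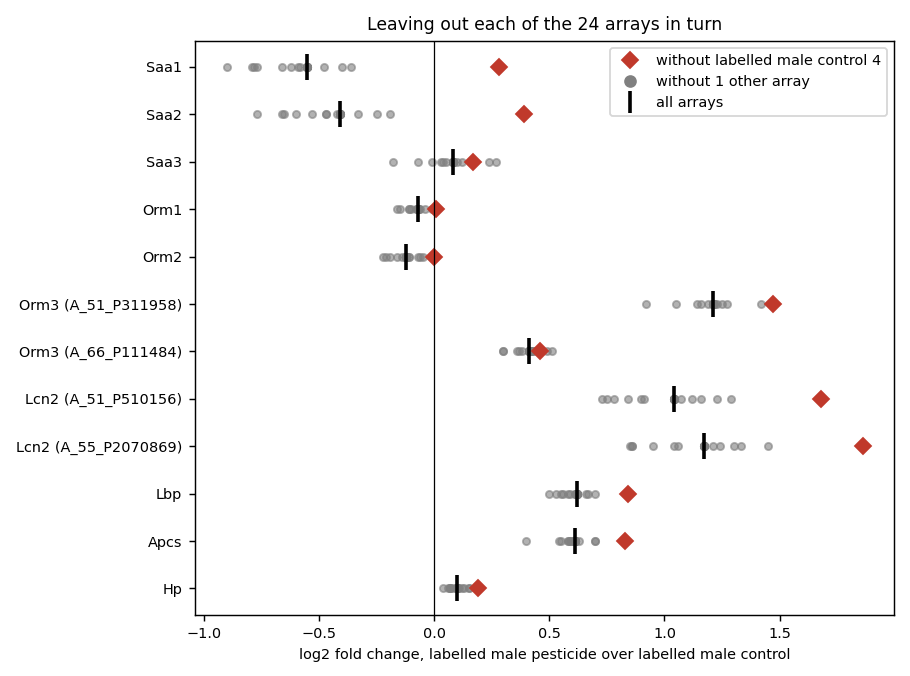
Log2 fold change of each probe in labelled males (horizontal axis, labelled pesticide over labelled control) with all arrays (black bar), without labelled male control 4 (red diamond) and without each other array (grey circles). Without labelled male control 4, Saa1 and Saa2 change sign, to 0.28 and 0.39, and the Lcn2 probes reach 1.68 and 1.86.

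Co-variation was measured as the correlation over arrays of the deviations from group means, with p from 100000 permutations within groups and Benjamini-Hochberg adjustment over the 45 gene pairs. Of these, 29 passed, all with positive r, 42 had a positive r, and the median r was 0.60. By Spearman's rho 25 passed. Pairs of other genes were not counted, so these counts are not shown to be particular to the members. Saa1 and Saa2 had r = 1.00 and rho = 0.99 over 23 arrays (permutation adjusted p = 9e-05 and 0.00011), and r was 0.99 without the 2 arrays farthest from the median. Each probe carries RefSeq accessions of its own gene alone, but its match to the other gene's transcript was not tested. These permutations cannot give an unadjusted p below 1e-05. Among the upstream windows aligned, those of Saa1 and Saa2 were the closest pair, at 95.3% identity. Orm2 and Orm3, at 86.6% identity, had r = 0.58, with the reservation that detection of Orm2 by the Orm3 probe was not tested. A link between upstream likeness and co-variation was not tested.

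Orm1 and Orm2 had r = 0.97 and rho = 0.97 over 24 arrays, and 0.96 without the 2 farthest, with the reservation that the Orm1 probe may detect Orm2. Lcn2 followed the serum amyloid genes, with r = 0.92 and rho = 0.90 to Saa1 and r = 0.90 and rho = 0.88 to Saa2. Without the 2 farthest arrays these were 0.84 and 0.83. On slides 1, 2 and 3 the r of Saa1 and Lcn2 was 0.87, 0.98 and 0.81. Hp followed Lcn2 (r = 0.82, rho = 0.73, 0.77 without the 2 farthest) and Lbp (r = 0.81, rho = 0.73, 0.73 without the 2 farthest).

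Of the 29 pairs that passed, 20 kept an r over 0.5 without the 2 arrays farthest from the median, and 9 did not. These arrays were the farthest for the gene that comes first in the opening list, so they differed among pairs. Pairs led by Saa3, Orm1 or Orm3 kept labelled male control 4. Without it and labelled female control 3, some of the 20 fell to 0.41 to 0.48. They were Saa1 with Orm1, Orm2 and Orm3, Saa2 with Orm2, and Lcn2 with Lbp and Orm1, and Orm3 with Lbp. Apcs stayed at 0.73 with Orm1 and 0.71 with Orm2 (0.77 and 0.78 over all arrays). Orm3 stood at 0.72 with Lcn2 and 0.64 with Lbp (0.67 and 0.60 over all arrays). The arrays left out for Orm3 were labelled female control 6 and labelled male control 5. Without labelled male control 4 and labelled female control 3 instead, Orm3 stood at 0.53 with Lcn2 and 0.41 with Lbp. Apcs then stood at 0.71 with Orm1 and 0.68 with Orm2. Saa1 and Lbp, one of the 9, had r = 0.73 (rho = 0.51, adjusted p = 0.028 and 0.062 by permutation), with r of 0.27, 0.91 and 0.29 on the 3 slides and 0.39 without the 2 farthest, but 0.81 within labelled pesticide arrays, which hold neither high control array, and 0.73 within labelled control arrays. Saa2 and Apcs, also one of the 9, had r = 0.75 (rho = 0.59, adjusted p = 0.0087 and 0.028 by permutation), 0.48 without the 2 farthest, -0.17 within labelled pesticide and 0.85 within labelled control arrays. Saa3 was the exception to the positive sign, with r of -0.33 to Orm1, -0.27 to Apcs and -0.19 to Orm2, none of which passed. Without labelled male control 4 alone 14 pairs passed, and without it and labelled female control 3 there were 13, of which 12 are among the 29; the other was Saa3 with Lbp.

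**Figure D5:**
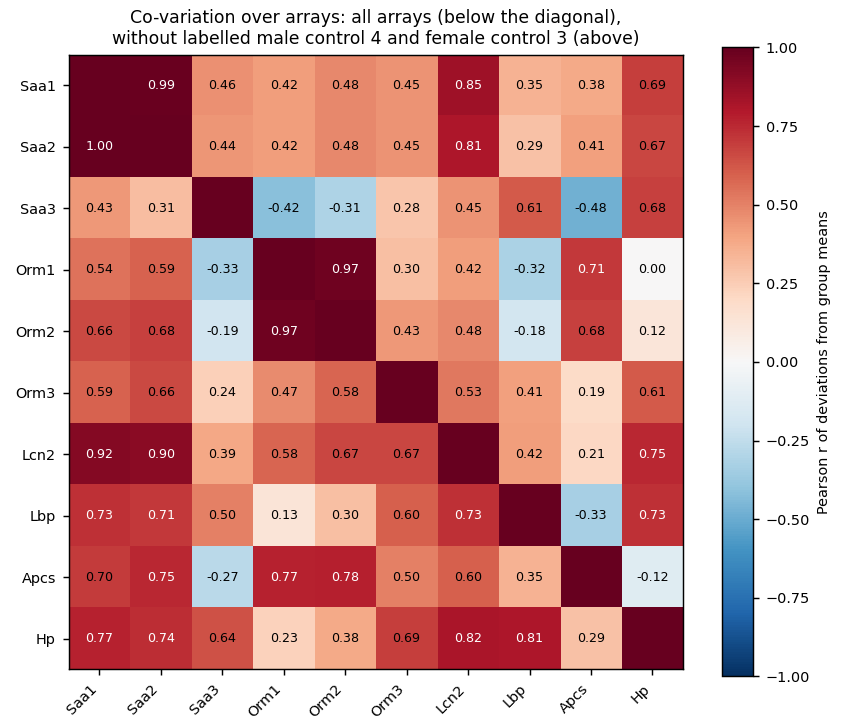
Pearson r of deviations from group means for each pair of the 10 genes, over all arrays (below the diagonal) and without labelled male control 4 and labelled female control 3 (above). Saa1 with Saa2 and Orm1 with Orm2 stay at 0.99 and 0.97, whereas Saa1 with Lbp moves to 0.35.

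Among 14459 other genes, those whose deviations were most like the mean of Saa1 and Saa2 over 24 arrays were Mt1 (r = 0.88), Prtn3 (0.86), Serpina3n (0.86), Mt2 (0.84) and Stat3 (0.83). Mt1 and Mt2 are metallothioneins, Serpina3n is a secreted protease inhibitor, Prtn3 is a neutrophil protease and Stat3 is the transcription factor of interleukin 6 signalling. Without the 2 farthest arrays, labelled male control 4 and labelled female control 3, r was 0.82, 0.64, 0.63, 0.81 and 0.71 in that order. Within labelled pesticide arrays r was 0.67, 0.35, -0.19, 0.73 and 0.77, and within labelled control arrays 0.92, 0.95, 0.96, 0.88 and 0.89. The likeness of Serpina3n was thus not seen within labelled pesticide arrays, and that of Prtn3 was weak there. For the mean of Orm1 and Orm2 they were C4b (r = 0.84), a complement component, Cyp21a1 (0.81), a steroid hydroxylase, Prg4 (0.81), a proteoglycan, Gnat1 (0.76) and Prtn3 (0.73). These values describe likeness over shared arrays and carry no test.

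Other acute phase genes were counted from lists chosen with earlier results of these data known. Each gene was read by its brightest probe; by that rule 24.8% of 16988 genes passed in labelled males (13.9% higher) and 20.3% in labelled females (10.2% higher), and the counts below are to be read against these shares. Of 33 other positive acute phase genes tested, 10 were higher and 3 lower in labelled males, and 16 higher and 3 lower in labelled females, with median log2 fold changes of 0.17 and 0.26 against -0.02 and -0.01 over all genes. Hamp2, a hepcidin paralogue, was higher by 3.59 (adjusted p = 1.8e-05) and 3.67 (adjusted p = 1.8e-05), and C9, the last complement component, differed by -1.27 (adjusted p = 3.8e-05) and -1.30 (adjusted p = 3.6e-05). Of 17 negative acute phase genes, 3 were higher and 0 lower in labelled males, and 4 higher and 1 lower in labelled females (medians 0.02 and 0.08); Serpina6, the corticosteroid carrier, was higher by 1.12 and 0.83 (adjusted p = 2e-06 and 0.00013).

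Of 14 cytokine and receptor genes, 5 were higher and 3 lower in labelled males, and 3 higher and 1 lower in labelled females (medians 0.17 and 0.22). Il1rap, the interleukin 1 co-receptor, differed by -0.65 (adjusted p = 0.0016) and -0.60 (adjusted p = 0.0037). Il6 was too dim to test. Of 20 transcription factor and feedback genes, 1 was higher and 0 lower in each labelled sex (medians -0.02 and 0.05): Nfkb1, by 0.31 (adjusted p = 0.011) and 0.25 (adjusted p = 0.041). Of 17 receptors and partners of the members, 8 were higher and 1 lower in labelled males, and 6 higher and 1 lower in labelled females (medians 0.52 and 0.47). Cd14, which receives lipopolysaccharide from Lbp, was higher by 1.47 and 1.51 (adjusted p = 0.00012 and 0.00011), and the inhibitory Fc receptor Fcgr2b was higher by 0.61 and 0.67 (adjusted p = 0.0013 and 0.00063).

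Markers of other cells moved with the labelled diet. Among 12 markers of Kupffer cells and other macrophages, 11 were higher in labelled males and 11 in labelled females (median log2 fold changes 1.37 and 1.15); Marco did not pass. Their summed level was 16.00 to 16.89 in labelled male pesticide, 14.70 to 16.46 in labelled male control, 15.44 to 17.27 in labelled female pesticide livers and 14.39 to 16.68 in labelled female control livers. Of 10 neutrophil markers tested, 3 were higher in labelled males and 5 in labelled females (medians 0.45 and 0.72), with a summed level of 15.39 to 15.74, 15.34 to 15.66, 15.34 to 15.75 and 15.35 to 15.53 in the same order of groups. Of 6 endothelial markers 5 were higher in each labelled sex (medians 0.57 and 0.59), and their summed level was 14.40 to 15, 13.92 to 14.42, 14.50 to 14.96 and 13.80 to 14.30 in that order. Of 7 stellate cell markers 6 were higher in labelled males and 2 in labelled females (medians 0.51 and 0.26). Among lymphoid and monocyte markers, 3 of 4 for B cells were higher in labelled males and 0 in labelled females, 3 of 4 for monocytes in labelled males and 1 in labelled females, and 2 of 5 for T and NK cells in labelled males and 1 in labelled females. No tested marker of the lists named so far was lower at the threshold. Of the others, 2 of 10 hepatocyte markers were higher in each labelled sex and 1 lower in labelled males, 0 of 5 bile duct markers passed, 1 of 4 adipocyte markers was lower in each, and of 3 erythroid markers 2 were higher in labelled males and 1 was lower in each. The part of these cells in the differences of Lbp, Orm3, Lcn2 and Apcs was not tested. Labelled male control 4 itself had a Kupffer level of 14.85 and a neutrophil level of 15.47, within the range of the other arrays of its group. The neutrophil level had medians of 15.51, 15.38, 15.48 and 15.45 in the same order of groups, although the median marker differed by 0.45 and 0.72. That level thus need not follow most neutrophil markers, and cannot show whether they were raised on a single array. The cause of the high acute phase signals of labelled male control 4 was not tested.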

How the data were processed

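The authors deposited scanner files that hold each spot's fluorescence intensity and quality marks, per the file headers, extracted with Agilent Feature Extraction 10.10.1.1 per the submitters' processing notes. The authors also deposited a table of log2 values, made per the labels by filtering, log2 transformation and quantile normalization of the median signal; it served as an alternative. Each scanner file correlated best with its own column of that table.

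Here the log2 median signal was used without background subtraction. Control spots were dropped (3671 of 62976), non-uniform outlier spots were set to missing, spots of a probe were averaged, and 56605 probes were quantile normalized. A probe was tested when well above background on at least 4 of 6 arrays of 1 group. The scanner marked 29935 to 39032 probes of an array as well above background, and 0 spots were saturated; the number of arrays limits the precision. One mean per group was fitted to 24 arrays with limma 3.58.1 in R 4.3.3, without a block, and p-values were Benjamini-Hochberg adjusted over 32078 probes at a threshold of 0.05. Tests were two-sided. The scripts were tested on simulated data.

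The members, the gene lists and the motifs were chosen with earlier results of these data known. Named genes are up to 4 per list with the smallest p of the averaged labelled diet difference, and the 5 genes most like each of Saa1 with Saa2 and Orm1 with Orm2. Alternatives were other background and scaling choices, filters, slide and replicate blocks, single slides, array weights, other variance settings, the deposited table and leaving out each array.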

Additional observations from a re-analysis of the deposited data

Results flagged for a closer look

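Of 48 sets of 1 probe in 1 labelled group, 1 held an array far from the others by Dixon's criterion: the Orm3 probe A_51_P311958 in labelled female control livers, where labelled female control 6 read 6.74 against 8.71 for the next lowest array. The gap was 0.626 of the group's range, against a critical value of 0.625 for 6 arrays. By chance about 1 in 20 such sets is marked. No member passed the test of the interaction of the diet and sex labels.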

How the results depend on the processing

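With 2, 2 and 5 member probes passing in labelled males, in labelled females and on average, the counts moved with several settings. In labelled males there were 0 after scaling processed signals to their 75th percentile, 1 with the median signal so scaled, 0 without a filter on dim probes and 1 with only the arrays compared. In labelled females there was 1 without the filter, with only the arrays compared and with array weights. On average there were 3 without the filter and with the trend and robust settings. Slide 1 alone gave 1 in labelled males and 3 on average, slide 2 alone gave 0, 0 and 0, and slide 3 alone gave 0, 0 and 2; these fits hold 2 arrays per group. Over all probes, slide 1 gave 1052, 1041 and 3499, slide 2 gave 583, 319 and 1525, and slide 3 gave 459, 346 and 1792, against 7131, 5878 and 11593 with all slides; slide 1 also gave 2 probes for the sex label within labelled pesticide. With 1 probe per gene, which tests fewer probes, 4376, 3603 and 6689 passed. Without labelled male control 4 and labelled female control 3, 5 member probes passed in labelled males and 5 in labelled females, and 6111 and 5425 of all probes. Leaving out 1 array at a time gave 0 to 5 member probes in labelled males, 1 to 3 in labelled females and 3 to 5 on average, and 5921 to 7483, 4777 to 6526 and 10793 to 12024 of all probes. It gave 0 to 1 of all probes for the sex label within labelled pesticide and within labelled control, and 14 to 32 gene pairs. Of 45 gene pairs, 29 passed over all arrays. Within labelled pesticide arrays 14 passed, 11 of them among the 29, the others being Saa3 with Saa1, Saa2 and Lbp. When labelled male control 4 and labelled female control 3 were left out, 13 passed, 12 of them among the 29. Averaged Lcn2 reversed on slide 2, to -0.19 and -0.22, and Saa1 and Saa2 with Apcs reversed within labelled pesticide arrays, to r of -0.14 and -0.17; the cause was not tested. Same-numbered arrays of different groups had correlations of -0.12 to 0.34 in 36 pairs (median 0.08), of which 15 exceeded 0.1. Differently numbered arrays had -0.34 to 0.33 in 180 pairs (median -0.02), of which 34 exceeded 0.1. Whether the replicate numbers pair the arrays was not tested. With the replicate block 2, 2 and 5 member probes, 8099, 6751 and 12652 of all probes, and 28 gene pairs passed. The dim Orm3 probe and the 6 arrays per group limit what could be detected.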
